A study of Mus musculus with 6 samples.

Results

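The genes described here encode 3 beta subunits of the sodium-potassium pump (Atp1b1, Atp1b2 and Atp1b3) and 4 FXYD proteins that regulate it (Fxyd1, Fxyd5, Fxyd6 and Fxyd7). They were chosen by symbol and make up 7 of the 24421 genes listed in each library, and all 7 were among the 18413 genes with enough signal to be tested. RNA was sequenced from cells sorted out of the olfactory bulb of 6 male mice, 3 Sox9 KO and 3 controls, with 1 library per mouse. The KO mice were Sox9 fl/fl, which carry a floxed Sox9 gene. The controls were C57BL/6J mice, named Sox9+/+ in the study's methods, and the strain label of all 6 samples is C57BL/6. The study lists the floxed mice as a line of their own, so line and Sox9 loss cannot be told apart between the groups. The mice of both groups had received the same virus in the bulb, AAV-GFAP-iCre-P2a-TurboRFP, so that Cre and the red protein TurboRFP were present in the controls as well. The GFAP promoter, which is active in astrocytes, drove both, and cells positive for TurboRFP were collected by sorting 4 weeks later. The study used adult mice, and no age is given for these 6 in particular.

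The sodium-potassium pump moves sodium out of the cell and potassium into it, and uses ATP to do so. Its catalytic alpha subunit needs a glycosylated beta subunit to fold and to reach the plasma membrane, and the choice of beta subunit changes how the pump binds its ions. FXYD proteins are small single-span membrane proteins, named after a conserved motif, that attach to the pump and tune its affinity and turnover. In the brain, astrocytes use the pump to clear the potassium that active neurons release and to keep the sodium gradient that drives glutamate and GABA uptake.

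Values are given as normalized counts, which are the reads of a gene divided by a size factor of the library. The 6 libraries held 18242129 to 86906527 reads on genes, and 1 read was worth between 0.395 and 1.58 normalized counts. Sox9, the deleted gene, was at 5556 ± 881 normalized counts in control libraries and at 58.2 ± 5.88 in the KO libraries (SD, n = 3 each), so the labels held in all 6. Summed over 10 astrocyte markers, the libraries held 230106 to 244988 normalized counts in control libraries and 22867 to 23861 in the KO group. The sum over 10 microglia and macrophage markers was 142733 to 167416 in control libraries and 503070 to 595990.4 in the KO group. Markers of microglia and macrophages were thus present in every library of cells labelled as astrocytes, and they differed between the groups in the opposite direction to the astrocyte markers. In bulk samples such as these, fewer cells of a type and less RNA per cell cannot be told apart. A gene was called higher or lower in KO at a Benjamini-Hochberg adjusted p under 0.05 in limma and a change of at least 1.5-fold. By this rule 22.2% of the tested genes were called higher and 28.8% lower, and in 67.2% the KO and control libraries did not overlap. The lower genes made up 56.4% of the calls. That share was 67.8% after scaling to the same total, 71.5% after doing so without the ribosomal RNA precursor Rn45s, and 43.5% after quantile normalization.

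In the GENCODE M21 annotation of GRCm38 (mm10), Fxyd5 lies on chromosome 7 from 31032722 to 31042481, Fxyd7 from 31042513 to 31051467 and Fxyd1 from 31051678 to 31057199, all on the minus strand. The gap between Fxyd5 and Fxyd7 is 31 bp and that between Fxyd7 and Fxyd1 is 210 bp, and the 3 genes together span 24.478 kb. Fxyd6 is on chromosome 9 from 45370185 to 45396159 on the plus strand, 3509 bp from Fxyd2. The beta subunit genes are apart from each other. Atp1b1 spans 164437109 to 164458355 on chromosome 1, Atp1b2 spans 69599736 to 69605942 on chromosome 11, and Atp1b3 spans 96332655 to 96364442 on chromosome 9, all on the minus strand.

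The 250 bases before the annotated start sites of Atp1b1 and Atp1b3 are shown because these beta subunit genes moved in opposite directions. They are RefSeq sequences of GRCm38.p6, read 5′ to 3′ on the minus strand of the gene, at chr1:164458356-164458605 for Atp1b1 and at chr9:96364432-96364681 for the upstream start site of Atp1b3. Capitals mark ACAAAG or ACAATG, core sequences that SOX proteins bind, or their reverse complements CTTTGT and CATTGT.
Atp1b1: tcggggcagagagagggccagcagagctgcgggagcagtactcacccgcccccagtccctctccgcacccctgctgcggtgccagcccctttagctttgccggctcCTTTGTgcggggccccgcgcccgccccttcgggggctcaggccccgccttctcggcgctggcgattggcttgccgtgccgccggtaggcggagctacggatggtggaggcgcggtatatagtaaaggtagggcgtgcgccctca
Atp1b3: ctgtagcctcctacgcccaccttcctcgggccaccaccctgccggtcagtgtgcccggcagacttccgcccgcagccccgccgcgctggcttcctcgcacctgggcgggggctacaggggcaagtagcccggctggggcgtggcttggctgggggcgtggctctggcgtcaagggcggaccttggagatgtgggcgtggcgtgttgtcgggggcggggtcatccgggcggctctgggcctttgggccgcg
The Atp1b1 window held CTTTGT, with its last base 139 bases before the start, and the Atp1b3 window held none of these letters. A second Atp1b3 start site had a match within its window at chr9:96363716-96363965, and so did Fxyd1 at chr7:31054854-31055103. The 30 bases around those matches are printed below for comparison.
Atp1b3, second start site: gggccgggcctcCTTTGTagggcgcgcgcc
Fxyd1: acccagaggtggACAAAGagagggatgttc
The match lay 151 bases before the second Atp1b3 start, on the opposite strand, and 183 bases before the Fxyd1 start, on the strand of the gene. Both of these starts are internal, since their windows lie within the annotated genes. Fxyd1 itself begins at 31057199 in GENCODE and at 31055873 in RefSeq. RefSeq windows were found for 5 of the 7 genes, with 6 start sites, and not for Atp1b2 and Fxyd7. A match was present in 3 of the 6 windows, none of which held more than 1, and in 25.2% of 32851 windows of the same length over all genes (16.5% for ACAAAG and 10.7% for ACAATG). Windows with a match belonged to a gene that was higher in KO as well as to genes that were lower. Binding was not measured here, and any link of these matches to the changes was not tested.

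Of the 3 beta subunit genes, Atp1b2 and Atp1b1 were lower and Atp1b3 was higher in KO. Atp1b2 encodes the beta2 subunit, also known as the adhesion molecule on glia, which is typical of astrocytes. It was measured at 60777, 54405 and 44202 normalized counts in control libraries and at 2531, 3922 and 3673 in the KO libraries. The lowest control was far above the highest KO library, and the means were 53128 ± 8361 and 3376 ± 742, which is 15.7-fold lower in KO. The log2 fold change was -3.99 with an SE of 0.17 (95% CI -4.37 to -3.61, adjusted p = 3.3e-08, limma). Of all tested genes, 2.26% had a lower log2 fold change.

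Atp1b1 encodes the beta1 subunit, which is widespread and abundant in neurons. Its normalized counts were 8775, 8450 and 10420.4 in control libraries and 1382, 2260.03 and 1559 in the KO libraries. The groups did not overlap, and KO replicate 2 was the highest of its group. The means of 9215 ± 1056 and 1734 ± 464 differed 5.32-fold, with a log2 fold change of -2.44 (SE 0.17, 95% CI -2.81 to -2.07, adjusted p = 6.2e-07, limma). The 10 neuronal markers moved the same way: 9 were called lower, none was at 0, and their sum was 17118 to 22891 normalized counts in control libraries and 2438 to 4380 in KO. KO replicate 2 held the highest of those 3 KO sums too. The part of these markers' decrease in that of Atp1b1 was not tested. Atp1b1 shares 575 bp of exon with Nme7 on the other strand, and no source used here gives the strand setting of the counting. Nme7, a nucleoside diphosphate kinase family gene, was at 228 ± 14.5 and 229 ± 33.7 normalized counts and was not called (95% CI of the log2 fold change -0.40 to 0.39).

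Atp1b3 encodes the beta3 subunit, the surface antigen CD298 of leukocytes and other cells. It was the only beta subunit gene of the 3 called higher in KO, from 4025, 4521 and 4344 normalized counts in the controls to 8580.2, 7456 and 9284 in the KO libraries. Each KO library was above each control. The means were 4297 ± 252 and 8440 ± 922, 1.96-fold higher in KO, with a log2 fold change of 0.97 (SE 0.10, 95% CI 0.74 to 1.19, adjusted p = 1.4e-05, limma). After quantile normalization its log2 fold change was 0.57, which is under 1.5-fold, and the call was lost although the direction held. The 10 microglia and macrophage markers were all called higher, with a median log2 fold change of 1.96. Their part in the rise of Atp1b3 was not tested.

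**Figure D1:**
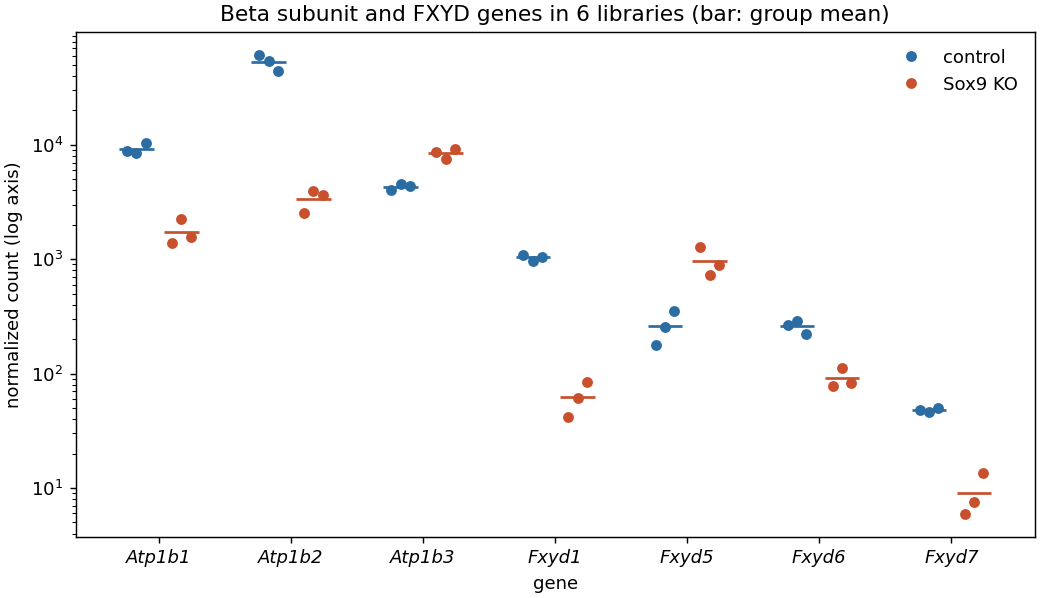
Normalized counts (log axis) of the 7 genes in each of the 3 control and 3 KO libraries, 1 point per library, with a bar at the group mean. In all 7 genes the groups do not overlap: Atp1b3 and Fxyd5 are higher in the KO libraries and the other 5 genes are lower.

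Among the FXYD genes, Fxyd1, Fxyd6 and Fxyd7 were lower and Fxyd5 was higher in KO. Fxyd1 encodes phospholemman, a regulator of the pump that is controlled by phosphorylation. Its normalized counts were 1097, 965 and 1045 in control libraries and 41.7, 61.6 and 85.1 in the KO libraries, so that every KO library was far below every control. The means of 1036 ± 66.8 and 62.8 ± 21.7 differed 16.5-fold. The log2 fold change was -4.08 (SE 0.24, 95% CI -4.61 to -3.54, adjusted p = 2.2e-07, limma), with 1.94% of all tested genes lower. The control libraries varied little for this gene, while KO replicate 3 was highest and KO replicate 1 lowest in its group.

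Fxyd5 encodes dysadherin, an FXYD protein with a long extracellular part that also affects cell adhesion. It was measured at 178, 253 and 351 normalized counts in control libraries and at 1272, 735 and 884 in the KO libraries. The groups did not overlap, though both were more spread than for Fxyd1. The means were 261 ± 86.9 and 964 ± 277, 3.69-fold higher in KO, and the log2 fold change was 1.90 (SE 0.26, 95% CI 1.321 to 2.47, adjusted p = 0.0001, limma). Of all tested genes, 95.6% had a lower log2 fold change. Fxyd5 therefore differed in direction from Fxyd7, whose annotated end is 31 bp away, and from Fxyd1 beyond it.

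Fxyd6 encodes phosphohippolin, which is expressed in brain. The values were 267, 288 and 221 normalized counts in control libraries and 78.4, 113 and 83.6 in the KO libraries. The groups did not overlap, and the mean fell 2.82-fold, from 259 ± 34.7 to 91.6 ± 18.6. The log2 fold change of -1.50 (SE 0.22, 95% CI -1.99 to -1.0022, adjusted p = 0.00018, limma) was the smallest of the 5 decreases. After quantile normalization it was -0.86, with the call kept.

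Fxyd7 encodes a brain FXYD protein and had the fewest reads, 33, 67 and 32 in control libraries and 6, 19 and 9 in the KO libraries. These made 48.2, 46.1 and 50.4 normalized counts in control libraries and 5.96, 7.50 and 13.7 in KO. The exact Poisson 95% intervals, which cover counting error only, reached down to 33.2, 35.7 and 34.5 in control libraries and up to 12.96, 11.7 and 26.0 in KO, so that no interval of the KO group met one of the controls. The means were 48.3 ± 2.17 and 9.04 ± 4.08, 5.34-fold lower in KO, with a log2 fold change of -2.37 (SE 0.43, 95% CI -3.32 to -1.41, adjusted p = 0.00074, limma). Quantile normalization gave -1.53, with the call kept. Its interval was the widest of the 7.

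Of the calls, 5 of the 7 genes were lower and 2 higher, against 28.8% and 22.2% of all tested genes, and all 7 had groups that did not overlap, against 67.2%. The median log2 fold change of the 7 was -2.37, and that of all tested genes was -0.07. Since most tested genes had groups that did not overlap, that count says little about these 7.

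**Figure D2:**
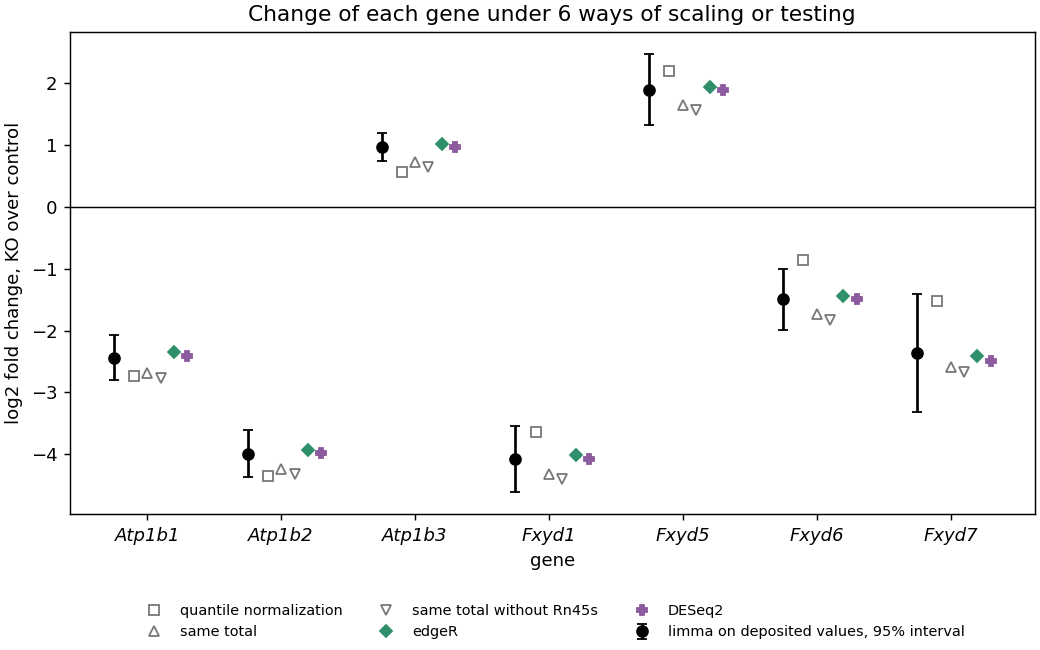
Log2 fold change of KO over control for each of the 7 genes, from limma on the deposited values (filled circle with its 95% interval) and from 5 other ways of scaling or testing. No gene changes direction, and the points that stray most from the interval are those after quantile normalization, for Atp1b3 at 0.57 and Fxyd6 at -0.86.

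To compare the genes with each other, normalized counts were divided by the length of the longest annotated transcript in kb. In the controls Atp1b2 had the highest level, 14164 ± 2229 normalized counts per kb, and ranked 39 of 17660 genes with a length. Atp1b1 followed with 3572 ± 409, Atp1b3 with 2155 ± 126 and Fxyd1 with 1551 ± 99.99. The remaining 3 were much lower: Fxyd6 at 110 ± 14.7, Fxyd5 at 87.1 ± 29.0 and Fxyd7 at 69.6 ± 3.12. Libraries of Fxyd6 overlapped those of Fxyd5, and those of Fxyd5 overlapped those of Fxyd7, while every other neighbouring pair in this order was separate.

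The order was different in the KO libraries. Atp1b3 was the highest of the 7 at 4233 ± 462 normalized counts per kb and ranked 313 of 17660 genes. Atp1b2 came next with 899.9 ± 198 and rank 1815, and its libraries overlapped those of Atp1b1, at 672 ± 180.02 and rank 2455. Fxyd5 was the highest FXYD gene with 321 ± 92.4, followed by Fxyd1 with 94.0 ± 32.5, Fxyd6 with 38.8 ± 7.88 and Fxyd7 with 13.05 ± 5.89. These levels rest on transcript lengths that the libraries may not use, since the longest Atp1b2, Fxyd1 and Fxyd6 transcripts in the annotation are not protein-coding. Among the FXYD genes the choice of length matters most for Fxyd5, whose longest transcript has 2998 bp and whose median is 782.5 bp. With median lengths, Fxyd5 was above Fxyd6 in each control library.

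For the 3 beta subunit genes and the 4 FXYD genes, the make-up was also taken within each library. It is the share of each gene in the sum of their levels per kb. The sums leave out Atp1b4, Fxyd2, Fxyd3 and Fxyd4, so they are not totals of the whole families. Such a share does not depend on how the libraries were scaled to each other. Atp1b2 made 74.9%, 72.4% and 65.5% of the beta subunit transcripts in control libraries and 12.2%, 18.5% and 15.7% in KO. Atp1b3 went the other way, from 9.33%, 11.3% and 12.1% to 78.0%, 66.1% and 74.6%. Because the shares are parts of the same sum, a fall of Atp1b2 by itself raises the share of Atp1b3. In normalized counts Atp1b3 was 1.96-fold higher in KO. These are shares in the RNA of all sorted cells together. Atp1b1 was 15.7%, 16.3% and 22.4% of the controls and 9.71%, 15.5% and 9.68% of KO. All 3 genes had shares that did not overlap between the groups, but the Atp1b1 shares overlapped when the longest protein-coding transcript was used or when no length scaling was applied. The mean of Atp1b3 rose by 62.0 percentage points, from 10.9 ± 1.43% to 72.9 ± 6.18% (exact two-sided permutation p = 0.1, adjusted p = 0.14 over 7 comparisons). With 3 against 3 libraries 0.1 is the smallest p that this test can give, so that no share could pass a threshold of 0.05.

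The FXYD make-up changed in the same manner. Fxyd1 made 87.1%, 84.1% and 84.7% of the FXYD transcripts in control libraries and 11.8%, 23.3% and 26.7% in KO. Fxyd5 took 3.15%, 4.92% and 6.34% in control libraries and 80.3%, 61.9% and 61.8% in KO. Here too a fall of Fxyd1 by itself raises the other shares, and in normalized counts Fxyd5 was 3.69-fold higher in KO. The mean of Fxyd5 was 63.2 percentage points higher in KO (exact permutation p = 0.1, adjusted p = 0.14). Shares of Fxyd6 (6.06 ± 1.03% and 8.59 ± 3.07%, exact permutation p = 0.2) and Fxyd7 (3.83 ± 0.13% and 2.83 ± 1.26%, exact permutation p = 0.4) overlapped between the groups. With the median transcript length or without length scaling, the Fxyd7 shares were lower in KO and did not overlap. The mean share of Fxyd6 was 2.53 percentage points higher in KO, a difference of 0.79 without KO replicate 2, and it was lower in KO with the median transcript length or without length scaling.

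**Figure D3:**
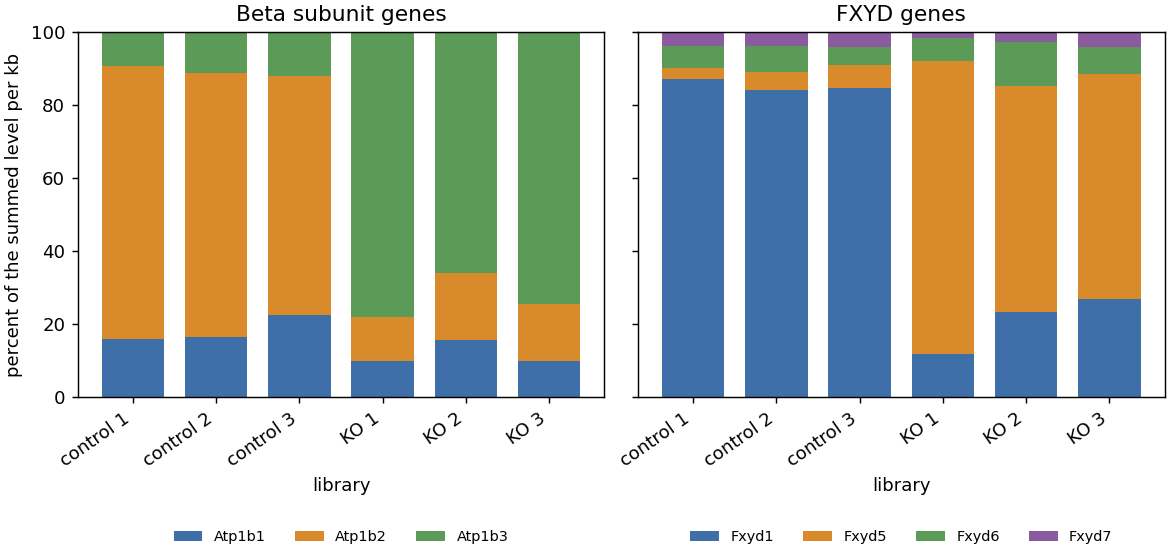
Share (%) of each gene in the level per kb summed over the 3 beta subunit genes in one panel and the 4 FXYD genes in the other. Each library has 1 stacked bar that starts at 0 and ends at 100. Atp1b2 and Fxyd1 fill most of the 3 control bars, and Atp1b3 and Fxyd5 most of the 3 KO bars.

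Summed over these genes, the beta subunit levels were 21622, 20047 and 18002 normalized counts per kb in control libraries and 5514, 5661 and 6239 in KO. The mean was 3.43-fold lower (19890.3 ± 1816 and 5804 ± 384, exact permutation p = 0.1). The summed FXYD levels were 1885, 1717 and 1848 in control libraries and 528, 396 and 477 in KO, a 3.89-fold lower mean (1817 ± 88.1 and 467 ± 66.8, exact permutation p = 0.1). Both p-values are again the smallest possible, and they stayed at 0.1 after adjustment over the 2 sums. Without length scaling the log2 difference of the FXYD sum was -0.53 in place of -1.97.

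Each gene was next set against the summed astrocyte markers of the same library, as a log2 ratio. The difference of KO minus control in this ratio was -0.63 for Atp1b2 and -0.72 for Fxyd1. Both thus fell more than the sum, which abundant markers such as Slc1a3 weigh on most, while 4 of the 10 markers had lower log2 fold changes than either gene. It was 0.92 for Atp1b1, 0.99 for Fxyd7, 1.86 for Fxyd6, 4.32 for Atp1b3 and 5.25 for Fxyd5. The KO and control libraries did not overlap in any of the 7 ratios. The astrocyte marker sum itself did not overlap between the groups, and any gene that fell less than this sum rises in the ratio. No share of non-overlapping ratios was taken over all genes, for this or the other marker sum. The count therefore says little about these 7. Atp1b2 ratios were -1.98, -2.17 and -2.38 in control libraries and -3.17, -2.56 and -2.70 in KO, so that the gap was narrow beside the fall of both its parts. Fxyd1 ratios were -7.77, -7.99 and -7.78 in control libraries and -9.07, -8.53 and -8.11 in KO.

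Set against the summed microglia and macrophage markers, the picture differed for the genes that were higher in KO. The Fxyd5 ratios were -9.87, -9.13 and -8.70 in control libraries and -8.86, -9.66 and -9.15 in KO. These overlap, and the means differed by 0.01 (exact permutation p = 1). The Atp1b3 ratios were -5.38, -4.98 and -5.08 in control libraries and -6.10, -6.32 and -5.76 in KO, a difference of -0.92 without overlap. Its rise in normalized counts was thus smaller than that of the marker sum. The other 5 ratios were lower in KO, with differences from -3.38 (Fxyd6) to -5.96 (Fxyd1). All non-overlapping ratios had an exact permutation p of 0.1, the smallest possible, or 0.108 after adjustment over the 14 comparisons.

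**Figure D4:**
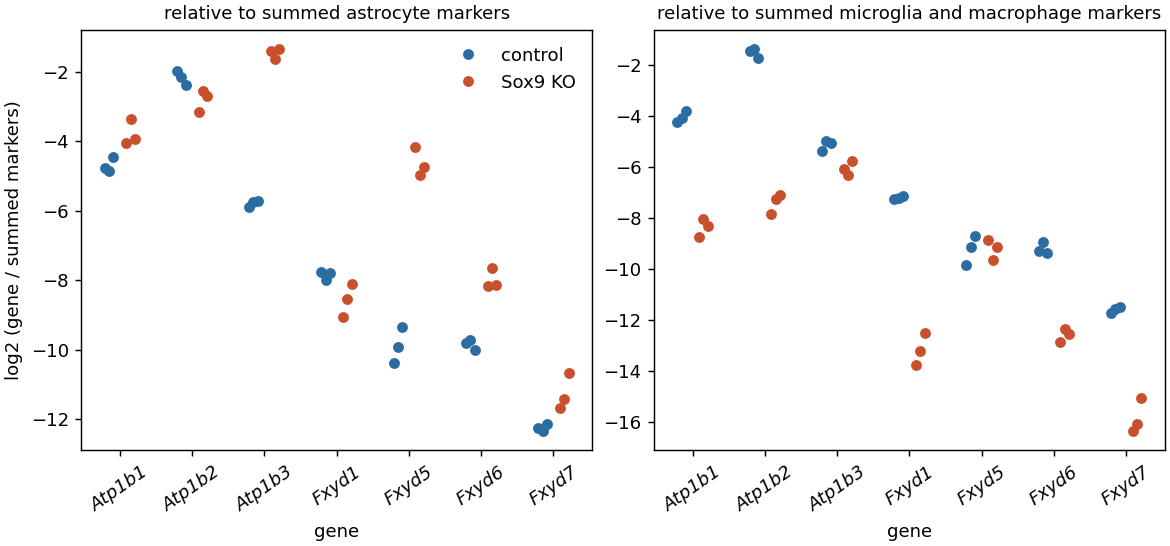
Log2 ratio of each gene to the summed astrocyte markers and to the summed microglia and macrophage markers of the same library, with 1 point per library for 3 control and 3 KO libraries. Against the astrocyte markers Atp1b2 and Fxyd1 are lower in KO and the other 5 genes higher, and against the microglia and macrophage markers the Fxyd5 groups overlap.

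The remaining genes of these families had few reads. Fxyd2, the gamma subunit known from kidney, was at 23.9 ± 4.66 and 16.2 ± 5.02 normalized counts and was not called (log2 fold change -0.56, adjusted p = 0.28, limma). Fxyd4, which regulates the pump in the kidney's collecting duct, had 10, 5 and 4 reads in control libraries and 39, 39 and 20 in KO. These made 14.6, 3.44 and 6.30 normalized counts in control libraries and 38.7, 15.4 and 30.4 in KO, with a narrow gap. Fxyd4 was called higher (log2 fold change 1.78, adjusted p = 0.023, limma). Fxyd3 had 3, 1 and 4 reads in control libraries and 0 in each KO library and was called lower (adjusted p = 0.049, limma), with no fold given at such counts. Atp1b4, a muscle gene related to the beta subunits, had 3, 3 and 0 reads in control libraries and 6, 33 and 4 in KO and was not called (adjusted p = 0.06, limma). Lgi4, the gene between Fxyd1 and Fxyd3, which encodes a secreted protein of glia, was at 612 ± 92.1 normalized counts in control libraries and at 87.2 ± 21.1 in KO (log2 fold change -2.81, adjusted p = 1.3e-06, limma).

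NKAIN proteins are membrane proteins that bind the pump's beta1 subunit, and they were listed together with the related proton-potassium pumps. Of the 7 genes listed, 5 were tested and 4 of these were called lower, with a median log2 fold change of -2.21. Nkain4 fell from 526 ± 96.4 to 20.7 ± 6.28 normalized counts, by -4.63 on the log2 scale. Nkain1 fell from 789 ± 331 to 97.1 ± 34.4 (-2.96), Nkain2 from 473 ± 79.0 to 106 ± 39.6 (-2.21) and Nkain3 by 1.86 on the log2 scale. All 4 are NKAIN genes, and Atp4a was not called.

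Among 10 genes of proteins that anchor or regulate the pump, 7 were called lower, 1 higher and 2 not, with a median log2 fold change of -1.60. Mlc1, a membrane protein of astrocyte endfeet, fell from 11971 ± 710 to 616 ± 38.4 normalized counts (-4.28 on the log2 scale). Hepacam, the adhesion protein that holds Mlc1 at cell junctions, fell from 11101 ± 1174 to 732 ± 142 (-3.93). Ank2, an ankyrin that links membrane transporters to the cytoskeleton, went from 13376 ± 362 to 1864 ± 274 (-2.85). Sgk1, a kinase induced by steroid hormones that raises pump activity, was the gene called higher, from 3910 ± 274 to 6472 ± 1138 (0.71, adjusted p = 0.00076, limma).

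A further list held transporters and channels that use or shape the sodium and potassium gradients. Of its 15 genes, 10 were called lower, 3 higher and 2 not, with a median of -2.64. Slc1a2, the main astrocyte glutamate transporter, fell from 258895 ± 18157 to 13677 ± 4943 normalized counts (-4.30). Slc6a11, a GABA transporter, fell from 68704 ± 8741 to 2799 ± 152 (-4.61), Slc1a3, another glutamate transporter, from 65973 ± 3788 to 10062 ± 1135 (-2.72), and Kcnj10, the inward rectifier channel that carries astrocyte potassium currents, from 59858 ± 7101 to 9555 ± 652 (-2.64). The cation-chloride cotransporter genes Slc12a2 (1.24) and Slc12a7 (0.72) were among those called higher, while Slc12a4 (-2.36), another such gene, was called lower. All of these Slc12 genes were named here after their values were seen. The astrocyte markers, of which 10 of 10 were called lower with a median of -3.63, moved the same way as most genes of these lists, and their part in it was not tested.

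**Figure D5:**
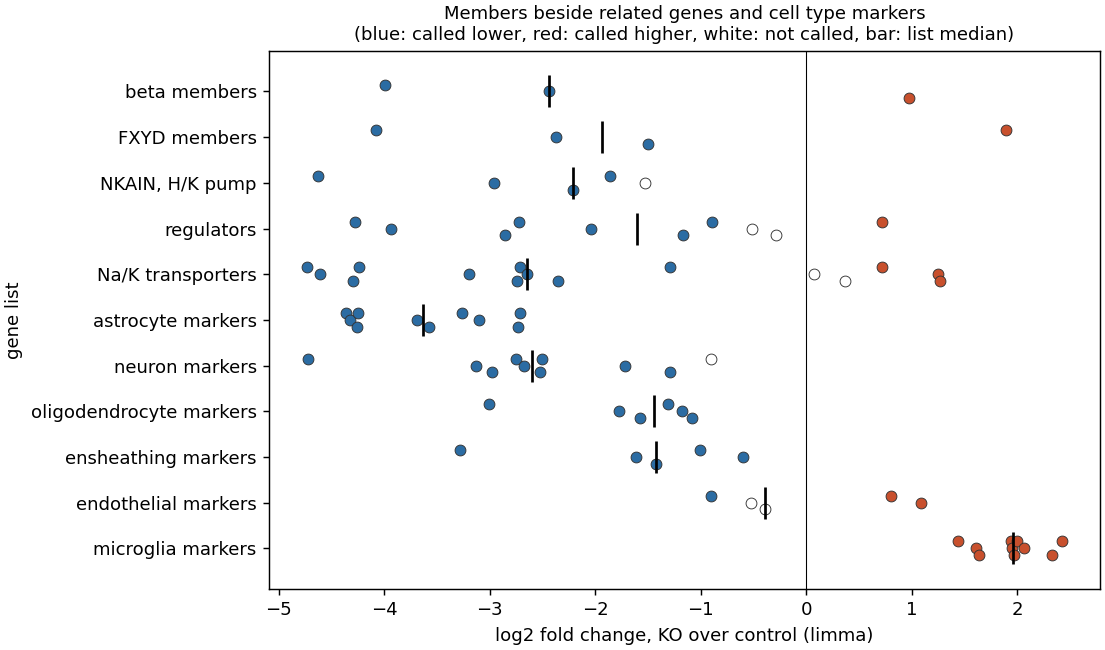
Log2 fold change of KO over control for each tested gene of the gene lists, 1 point per gene (blue for called lower, red for called higher, white for not called) with the list median as a bar. Of the lists drawn, the astrocyte markers have the lowest median at -3.63, the microglia and macrophage markers are all above 0 with a median of 1.96, and the medians of the transporter and regulator lists are -2.64 and -1.60.

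The genes whose profiles over the 6 libraries lay closest to each of the 7 were found among 11920 others with a mean of at least 100 normalized counts, by the root mean square difference of log2 values. These distances describe 6 libraries in 2 groups, so that any gene with a like difference between the groups lies close. For Atp1b2 the closest were Prnp (0.074), Sox2 (0.079) and Fgfr1 (0.090), the prion protein, a SOX factor of neural stem cells and astrocytes, and an FGF receptor. For Fxyd1 they were Epha4 (0.056), Gpc5 (0.078) and Limch1 (0.108), and for Atp1b1 Cacna2d1 (0.049), Myt1l (0.072) and 9330159F19Rik (0.075).

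Cacna2d1 and Myt1l are a calcium channel subunit and a neuronal transcription factor. For Atp1b3 the closest were Wdr3 (0.058), Nfkbiz (0.059) and Tmem230 (0.060), and those close to Fxyd5 included Cd274 (0.074), which encodes the checkpoint ligand PD-L1, and C4b (0.128), a complement component. For Fxyd6 they were Cdk5r1 (0.095), Cav2 (0.107) and Dvl3 (0.110), and those close to Fxyd7 included Heg1 (0.104) and Neo1 (0.122).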

How the data were processed

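RNA-seq was done on TurboRFP-positive cells sorted from 6 mice, from 10 ng of total RNA per library (NuGEN Trio). The authors mapped reads to mm10 with STAR 2.5.0a, counted reads per gene (GenomicAlignments, GenomicFeatures) and divided the counts by DESeq2 1.20.0 size factors. The deposited signal values carry the name RPM, but 100% of them were whole multiples of 1 step per library within 0.01 read, so the reads could be recovered. No source used here gives the annotation or strand setting of this counting.

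Genes with a mean of at least 1 (18413, with 6008 left out) were fitted together on log2(normalized count + 1) by limma 3.58.1 (R 4.3.3, variance trend), and p-values were Benjamini-Hochberg adjusted over all of them. A fold change is on that log2 scale, which understates the change of low genes. The recovered reads were also tested with edgeR 4.0.16 and DESeq2 1.42.0. Shares, sums and ratios to markers were compared by exact permutation tests over libraries. Lengths, positions and overlaps came from GENCODE M21, in which 95.6% of the 24421 symbols were found, and promoter windows from RefSeq GRCm38.p6. The limma, edgeR and DESeq2 tests were checked on simulated data, in which far fewer genes changed than were called here. The permutation tests were not part of that check.

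The 7 genes and the gene lists were chosen with earlier results of these data known. The text names the 7 genes, Sox9, Rn45s, genes that overlap or neighbour them, at most the 4 genes of highest mean in each list, and the 3 genes of closest profile to each. Slc12a2, Slc12a4 and Slc12a7 are exceptions, picked with their values in view. Fxyd5 also shares 60 bp with the microRNA gene Mir7050, which had 1 read in 1 KO library. The alternatives to the pseudocount, filter, scaling, variance model, block, tool, transcript length and each left-out library are given in the closing section. The pump's alpha subunit genes, and some genes that these rules would name, are not reported here.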

Additional observations from a re-analysis of the deposited data

How the results depend on the processing

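Over 18 alternatives, 6 of which left out 1 library each, the 7 genes kept their direction and call in 125 of 126 cases. The exception was Atp1b3 after quantile normalization, at 0.57 (limma, adjusted p = 0.00047), under 1.5-fold. Among the 18, the use of unadjusted p-values kept the same fit, so its 7 cases could not come out otherwise. With 1 library left out, the log2 fold changes ranged from -2.64 to -2.29 for Atp1b1, -4.12 to -3.79 for Atp1b2, 0.90 to 1.06 for Atp1b3, -4.32 to -3.82 for Fxyd1, 1.65 to 2.14 for Fxyd5, -1.66 to -1.40 for Fxyd6 and -2.68 to -2.14 for Fxyd7. Scaling to the same total, the same without Rn45s, and quantile normalization moved the median of all genes by -0.23, -0.31 and 0.26 (log2). Genes called higher in KO went from 4090 to 2630 under the second of these. The log2 difference of the summed beta level (-1.77) became -2.02, -2.10 and -2.21 under the 3 scalings, -2.00 with the longest protein-coding transcripts and -2.30 without length scaling. That of the summed FXYD level (-1.97) became -2.21 and -2.30 under the first and second scaling, -0.83 with the median transcript length and -0.53 without length scaling. The share of Fxyd6 (2.53 percentage points higher in KO) reversed to -2.04 with the median length and -7.62 without length scaling, stayed higher at 3.47 with the longest protein-coding transcripts, and ranged from 0.79 (without KO replicate 2) to 3.68 with 1 library left out. That of Atp1b1 (-6.54) became -1.26 without length scaling. The cause was not tested beyond these constructions. The Fxyd5 ratio to the microglia and macrophage markers (0.01) reversed to -0.30, -0.17 and -0.02 without WT replicate 1, KO replicate 1 and KO replicate 3, and ranged up to 0.28. The coding-length alternative, the sums without length scaling and the alternatives that set genes against markers were chosen after seeing the data. Same-numbered libraries did not deviate together (correlations of -0.09, -0.01 and -0.02 over 15561 genes). The values thus show no pairing by replicate number, but they cannot tell whether same-numbered samples were processed together. A replicate block gave 4048 genes called higher and 5227 lower (4090 and 5299 without it) and changed no call among the 7 genes, with log2 fold changes of -2.44, -3.99, 0.97, -4.08, 1.90, -1.50 and -2.37 in the order above. Depth limits the low genes most, above all Fxyd7 with 6 to 67 reads per library. Each group holds 3 mice, and both share the virus and the protocol of dissociation and sorting. No source used here says whether the groups were dissociated and sorted together.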

Other observations

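Markers of the remaining cell types were counted in the same fit (limma, adjusted p under 0.05 and 1.5-fold). All 6 oligodendrocyte markers, all 4 oligodendrocyte precursor markers and all 5 olfactory ensheathing cell markers were called lower in KO, with medians of -1.44, -2.90 and -1.43 on the log2 scale. Of the 5 border macrophage markers 4 were lower and 1 higher (median -0.79), unlike the 10 microglia and macrophage markers. Of 4 mural cell markers 3 were lower, of 5 endothelial markers 2 were higher and 1 lower, and of 4 fibroblast markers none was called. Of 4 ependymal and choroid plexus markers 1 was lower, of 4 lymphocyte markers 1 was higher, and the single erythroid marker tested was lower while the other two were at 0 in all libraries.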
